A study of Mus musculus with 18 samples.

Results

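Ribosomal protein genes were followed in 3 populations of mouse mammary epithelial cells. The members were all probe sets of the 2 array types whose platform annotation gives a single gene symbol that names a protein of the large or small cytosolic ribosomal subunit, with S6 kinases and pseudogenes left out. They were 105 probe sets for 49 genes (100 on MOE430 chip A and 5 on chip B), of 45137 probe sets and 18194 genes in all. A further 28 ribosomal protein genes, among them Rpl3, Rpl5 and Rps23, had only probe sets annotated to several genes and are not members. Some member genes, among them Rpl12, Rpl14, Rpl37, Rpl39, Rps6, Rps25 and Rps27, also have such probe sets, which were left out.

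The MaSC samples came from a sorted fraction enriched for mammary stem cells, with an estimated 1 stem cell in 50 to 100 cells, and 2000 to 4000 cells went into an RNA preparation. The MYO samples came from basal myoepithelial cells of about 94% estimated purity that resemble the stem cell fraction in phenotype but are poor in stem cells, with 3000 to 24000 cells per preparation. The CFC samples came from a fraction enriched for colony forming progenitors, with 1 such cell in 10 sorted cells and 3000 to 4000 cells per preparation. All cells were purified from mammary tissue by magnetic and flow sorting, and the labels name no culture step, drug, strain or age. Each population had 3 RNA samples (MaSC1 to MaSC3, MYO1 to MYO3 and CFC1 to CFC3), each hybridised to both chips. The labels call the CFC samples biological triplicates and say nothing on this for the others, so the p-values reflect the variation among these samples, part or all of which could be technical.

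Ribosomal proteins join ribosomal RNA to form the large subunit, which makes peptide bonds, and the small subunit, which decodes messenger RNA. Most are needed in equal numbers, and their messenger RNAs are among the most abundant in dividing and secretory cells. Many of these messengers begin with a cytosine followed by a run of pyrimidines, the terminal oligopyrimidine motif, through which mTOR signalling and the RNA-binding protein LARP1 set their translation. A few genes have a paralog with a more restricted expression, such as Rpl3l in striated muscle and Rpl39l in testis.

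The windows around the annotated gene start show that motif in several members. Each runs 20 bases before to 10 bases after the start on the coding strand of build GRCm38.p6 (RefSeq), and the capitals mark the pyrimidine run that opens with C. The first 5 belong to genes whose MaSC signals were all below the CFC signals, and Rps27 and Rps6 are shown because their signals overlapped.
Rplp2, chr7:141447631-141447660, plus strand: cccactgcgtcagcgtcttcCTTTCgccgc
Rps10, chr17:27635235-27635264, minus strand: acgctgcgccgcgcacgcccCTTCCTTTCC
Rpl35, chr2:39005122-39005151, minus strand: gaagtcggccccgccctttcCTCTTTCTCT
Rpl38, chr11:114668560-114668589, plus strand: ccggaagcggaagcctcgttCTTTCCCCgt
Rps18, chr17:33955656-33955685, minus strand: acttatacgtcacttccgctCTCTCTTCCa
Rps27, chr3:90213639-90213668, minus strand: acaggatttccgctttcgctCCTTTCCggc
Rps6, chr4:86857358-86857387, minus strand: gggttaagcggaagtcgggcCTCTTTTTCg

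Promoters from 250 bases before to 50 after the start were matched for 43 member genes. A C within 3 bases of the start followed by at least 4 more pyrimidines was found in 15 of them (34.9%), against 11.7% of all 27025 genes in the RefSeq table. The ETS core CCGGAAG, searched on both strands, was found in 21 of the 43 (48.8%), against 9.93% of all genes. The YY1 core AAGATGG, also on both strands, was found in 18.6% of the members and 7.28% of all genes, and the SP1 core GGGCGG in 58.1% and 38.2%. The TATAAA box, on the coding strand, was found in 11.6% of the members and 9.77% of all genes. These are letter matches in fixed windows and not shown binding sites. Windows of 30 bases with the ETS core in capitals, as read on the coding strand, follow for Rpl41 and Rps26, whose MaSC signals were all below the CFC signals, and for Rps25, which ran the other way.
Rpl41, chr10:128549206-128549235, minus strand: tagtaaggcagCCGGAAGtcgctgtctcga
Rps26, chr10:128626702-128626731, minus strand: ttaatcttccgCCGGAAGgttaaatagttc
Rps25, chr9:44407630-44407659, plus strand: cacccattgccCCGGAAGtactctctcgag

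The measure is the deposited signal of a probe set, a brightness on a linear scale that the authors set so that the trimmed mean of every array is 1500. Testing required a signal of 300 on 3 or more of the 9 arrays of a chip, and fold changes are on the log2(signal + 150) scale, which understates changes of dim genes. Of the members, 100 probe sets passed, and 48 genes (26 of the large and 22 of the small subunit) were represented by 1 probe set each. The paralog Rps4l had no probe set that passed. A signal also depends on the probes, so levels were compared between samples and not between genes. Of the 48 genes, 34 had a mean signal of at least 10000 and are called bright below. The populations carried their label's markers. The basal genes Krt5, Krt14, Acta2 and Trp63 were called higher in MaSC and in MYO than in CFC (limma, adjusted p under 0.05), and of the 4 luminal genes Krt8, Krt18, Krt19 and Epcam all were called lower in MYO and 2, Krt18 and Krt19, in MaSC (adjusted p = 0.129 for Krt8 and 0.246 for Epcam).

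Ribosomal protein signals were lower in the stem cell enriched fraction than in the colony forming fraction for most genes, without any single gene passing the test. The median log2 fold change of the 48 genes, MaSC minus CFC, was -0.60, against -0.03 over all 17339 genes tested, and 42 of the 48 lay below 0. It was -0.29 under quantile normalisation and -0.28 with the fluidics station, which was not the same for all arrays, as a block. In 29 of the 48 genes (60.4%) all 3 MaSC samples were below all 3 CFC samples, against 6.94% of all genes (18 genes under quantile normalisation), and in 2 genes (4.17%) all 3 were above, against 5.80%. No member was called (limma, Benjamini-Hochberg), against 0.265% of all genes called lower and 0.629% called higher. The smallest adjusted p was 0.133. At an unadjusted p under 0.05, 6 member genes were lower and 2 higher, and the same rule took 3.86% and 3.98% of all genes. The F test over the 3 populations called no member either, and 0.83% of all probe sets.

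Both subunits showed the shift. The 26 large subunit genes had a median of -0.61, with 21 below 0 and 15 without overlap, and the 22 small subunit genes had a median of -0.59, with 21 below 0 and 14 without overlap. The bright genes carried it: all 34 were below 0, with a median of -0.62, and 27 had no overlap. The 14 dimmer genes had a median of -0.04, with 8 below 0. The 436 other genes with a mean signal of at least 10000 had a median of -0.05. In 15.6% of them all MaSC samples were below all CFC samples. These genes were not matched to the bright members in signal: 23 of the 100 brightest tested probe sets of chip A were members.

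**Figure D1:**
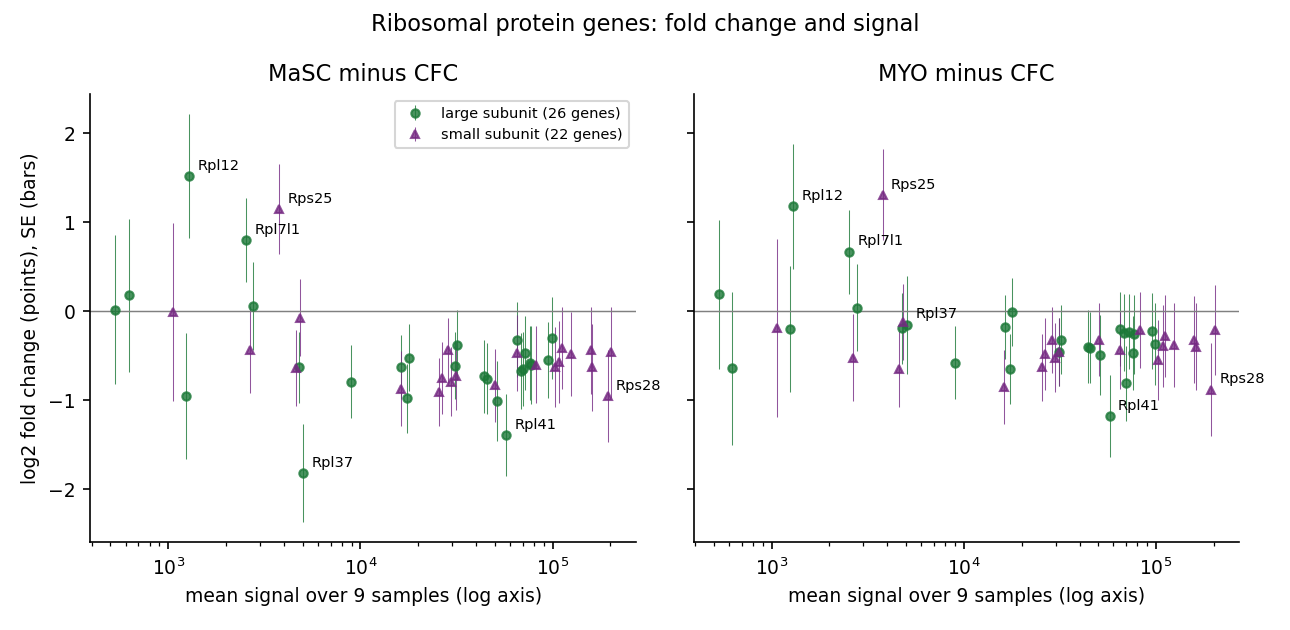
Log2 fold change of each ribosomal protein gene (points, with the standard error as bars) for MaSC minus CFC on the left and MYO minus CFC on the right, against its mean signal over the 9 samples on a log axis; circles are large and triangles small subunit genes. All 34 genes with a mean signal of at least 10000 lie below 0 in both panels, and the dimmer genes scatter to both sides.

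In the large subunit, Rpl37 had the lowest fold change, and it was among the dim genes (mean signal 5051). Probe sets of Rpl37 annotated to several genes were left out, so the values describe the member probe set and not the whole gene. Its signals, in order of replicate 1 to 3, were 316, 4221 and 3207 in the MaSC samples, 7250, 5747 and 4829 in the MYO samples and 6368, 5377 and 8143 in the CFC samples. All MaSC samples were below all others, and MaSC1 was far below the other 2 MaSC samples. The log2 fold change, MaSC minus CFC, was -1.82 ± 0.55 (SE, n = 3 each; limma adjusted p = 0.133). It was -0.80 without MaSC1, and without MaSC2 it was -2.42 and passed the test (adjusted p = 0.025).

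Rpl41, the shortest ribosomal protein, had signals of 24428, 35541 and 40282 in the MaSC samples, 41929, 59527 and 21606 in the MYO samples and 171995, 58945 and 62181 in the CFC samples. All MaSC samples were below all CFC samples, CFC1 stood far above every other sample, and the highest MYO sample just passed the lowest CFC sample. The fold change, MaSC minus CFC, was -1.39 ± 0.46 (limma adjusted p = 0.21), and -0.89 without CFC1. Rpl37a, a zinc-binding protein of the large subunit, had signals of 42508, 26150 and 29983 in the MaSC samples, 91564, 53647 and 20040 in the MYO samples and 65620, 57369 and 73417 in the CFC samples. The MaSC samples did not overlap the CFC samples, and MYO held both the highest and the lowest of the 9 values. Its fold change, MaSC minus CFC, was -1.01 ± 0.45 (adjusted p = 0.511).

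Rpl11, which with 5S RNA and Rpl5 binds and inhibits the p53 regulator Mdm2, had signals of 10975, 12249 and 12428 in the MaSC samples, 18461, 22180 and 8110 in the MYO samples and 30005, 17744 and 24441 in the CFC samples. The 3 MaSC samples lay close together and below all CFC samples, and MYO spanned both. Its fold change, MaSC minus CFC, was -0.98 ± 0.39 (limma adjusted p = 0.412). The stalk proteins, which recruit elongation factors to the large subunit, were Rplp0 and Rplp2. Rplp2 had signals of 28646, 37116 and 35504 in the MaSC samples, 53125, 54614 and 26656 in the MYO samples and 71374, 43868 and 58418 in the CFC samples, with a fold change of -0.76 ± 0.40 (adjusted p = 0.645). Rplp0 had signals of 42823, 69448 and 69499 in the MaSC samples, 47619, 73167 and 42360 in the MYO samples and 119319, 80087 and 83387 in the CFC samples. For Rplp0, unlike Rplp2, the MYO samples too were all below the CFC samples, and the fold change was -0.65 ± 0.42 for MaSC (adjusted p = 0.749) and -0.81 ± 0.42 for MYO (adjusted p = 0.685), both minus CFC. Without MaSC1 the Rplp0 value for MaSC was -0.42.

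Rpl14 was among the 6 lowest by fold change (-0.95 ± 0.71, adjusted p = 0.805) but was dim. Its signals were 973, 120 and 1566 in the MaSC samples, 2579, 922 and 710 in the MYO samples and 1655, 1011 and 1656 in the CFC samples, and the populations overlapped. The low value rested on MaSC2, and the fold change without it was -0.17.

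**Figure D2:**
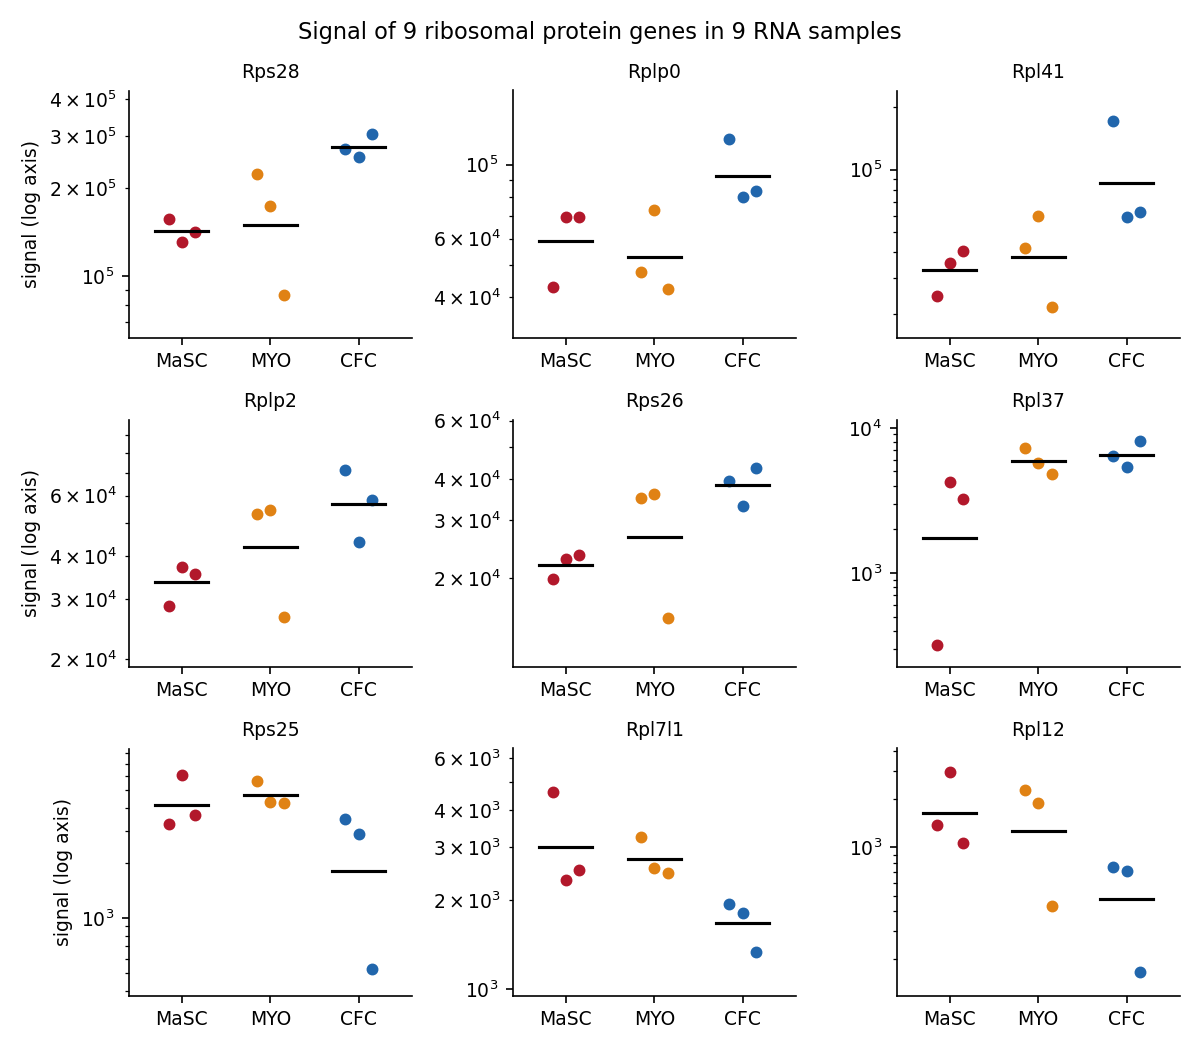
Signal of 9 ribosomal protein genes in each RNA sample (points; replicates 1 to 3 from left to right within a population) on log axes that differ between panels; the bar is the mean on the log2(signal + 150) scale. In Rps28, Rplp0, Rpl41, Rplp2, Rps26 and Rpl37 all MaSC points are below all CFC points, and in Rpl7l1 and Rpl12 all are above; MYO3 is the lowest MYO point in each of the 9 panels.

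In the small subunit, Rps28 had the lowest fold change. Its signals were 157034, 130897 and 141008 in the MaSC samples, 222393, 173882 and 86686 in the MYO samples and 270415, 253725 and 305778 in the CFC samples. Every MaSC and every MYO sample was below every CFC sample, and the fold changes were -0.95 ± 0.52 for MaSC minus CFC (limma adjusted p = 0.657) and -0.88 ± 0.52 for MYO minus CFC (adjusted p = 0.751). The MYO value was -0.49 without MYO3. The other 2 probe sets of Rps28 gave -0.93 and -0.96 for MaSC minus CFC. Rps24, mutated in some people with Diamond-Blackfan anaemia, had signals of 13765, 22367 and 19977 in the MaSC samples, 17806, 32278 and 19091 in the MYO samples and 39081, 27453 and 38291 in the CFC samples. MaSC and CFC did not overlap, MYO2 reached the CFC range, and the fold change, MaSC minus CFC, was -0.91 ± 0.38 (adjusted p = 0.45).

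Rps26, which lines the messenger RNA exit channel, had signals of 19882, 22824 and 23516 in the MaSC samples, 34885, 35966 and 15132 in the MYO samples and 39386, 33055 and 43183 in the CFC samples. The MaSC samples differed little among themselves and were below all CFC samples, 2 MYO samples were in the CFC range and MYO3 was the lowest of all. Its fold change, MaSC minus CFC, was -0.79 ± 0.39 (limma adjusted p = 0.601). Rps10 had a like pattern, with 16014, 24077 and 19822 in the MaSC samples, 32650, 32261 and 12874 in the MYO samples and 37405, 26706 and 36716 in the CFC samples, and a fold change of -0.75 ± 0.40 (adjusted p = 0.643).

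Rps2, which lies at the messenger entry side of the small subunit, had signals of 127654, 173868 and 212952 in the MaSC samples, 247205, 195151 and 164787 in the MYO samples and 255715, 229717 and 208429 in the CFC samples. MaSC3 was above CFC3, so the populations overlapped, and the fold change of -0.46 ± 0.51 was within its error (adjusted p = 0.906), and it was -0.26 without MaSC1. Rps7 overlapped as well, with 90494 to 120964 in MaSC, 75389 to 171327 in MYO and 119081 to 191207 in CFC. Rps3, a DNA repair endonuclease outside the ribosome, had 117782 to 151107 in MaSC, 110961 to 187657 in MYO and 152225 to 212120 in CFC. Rps29 had 118321 to 135029 in MaSC, 105643 to 229251 in MYO and 157536 to 219557 in CFC. In Rps3 and Rps29 the MaSC samples stayed below the CFC samples.

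The members that ran the other way were dim. For Rpl12 and Rps25, probe sets annotated to several genes were left out, so the values describe the member probe set and not the whole gene. Rpl12, a base protein of the stalk, had signals of 1373, 2953 and 1062 in the MaSC samples, 2284, 1879 and 432 in the MYO samples and 755, 707 and 166 in the CFC samples. All MaSC samples were above all CFC samples, and MYO3 lay within the CFC range. The fold changes were 1.52 ± 0.70 for MaSC minus CFC (limma adjusted p = 0.546) and 1.18 ± 0.70 for MYO minus CFC (adjusted p = 0.756), with 0.69 for MYO without CFC3 and 1.83 without MYO3. Rps25, needed for internal ribosome entry on some viral messengers, had signals of 3287, 6058 and 3644 in the MaSC samples, 5622, 4306 and 4276 in the MYO samples and 3468, 2888 and 526 in the CFC samples. Every MYO sample was above every CFC sample, MaSC1 was below CFC1, and CFC3 was far below the rest. The fold changes were 1.15 ± 0.51 for MaSC minus CFC (adjusted p = 0.511) and 1.31 ± 0.51 for MYO minus CFC (adjusted p = 0.364). They were 0.38 and 0.55 without CFC3.

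Among the paralogs, Rpl7l1, a factor of large subunit assembly, had signals of 4614, 2331 and 2529 in the MaSC samples, 3250, 2559 and 2466 in the MYO samples and 1933, 1799 and 1332 in the CFC samples. Every MaSC and every MYO sample was above every CFC sample, with fold changes of 0.80 ± 0.47 for MaSC minus CFC (limma adjusted p = 0.701) and 0.67 ± 0.47 for MYO minus CFC (adjusted p = 0.836). Without MaSC1 the MaSC value was 0.50. In the other tested probe sets of Rpl7l1 both MaSC and MYO overlapped with CFC. One on chip A gave 0.72 for MaSC minus CFC and 0.35 for MYO minus CFC. The one on chip B, with the highest mean signal of the gene (4729), gave 0.02 and -0.11. The core gene Rpl7 had 52953 to 62600 in MaSC, 42875 to 89698 in MYO and 57991 to 80068 in CFC, and all 3 ranges overlapped. The difference between paralog and core gene was not tested.

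Rpl22l1 had signals of 4095, 7172 and 9514 in the MaSC samples, 9659, 7267 and 6203 in the MYO samples and 19219, 7598 and 10167 in the CFC samples. MaSC and CFC overlapped in 1 sample pair, and the fold change, MaSC minus CFC, was -0.79 ± 0.41 (limma adjusted p = 0.63). It was -0.42 without CFC1, the highest sample, and -0.46 without MaSC1, the lowest. Its core gene Rpl22, which represses Rpl22l1 in mouse, had 15757, 10465 and 14678 in the MaSC samples, 27158, 21081 and 12495 in the MYO samples and 16606, 18078 and 24146 in the CFC samples, with all MaSC samples below all CFC samples. Rps27l, a p53 target, had 3168, 4565 and 3532 in the MaSC samples, 2289, 5498 and 3962 in the MYO samples and 4912, 8780 and 4665 in the CFC samples. In this probe set MaSC was below CFC throughout, and the fold changes were -0.64 ± 0.43 for MaSC minus CFC (adjusted p = 0.761) and -0.65 ± 0.43 for MYO minus CFC (adjusted p = 0.816). CFC2 stood far above the other samples, and without it the values were -0.35 for MaSC and -0.36 for MYO. Without MYO1 the MYO value was -0.32. The other probe sets of Rps27l gave -0.55 and -0.83 for MaSC minus CFC and -0.66 and -0.86 for MYO minus CFC. In the first of them MaSC3 (5070) was above every CFC sample, and in the second all MaSC samples were below CFC. In both, all MYO samples were below all CFC samples.

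The core gene Rps27 had overlapping signals of 3518 to 6731 in MaSC, 3099 to 5457 in MYO and 2865 to 6818 in CFC. Rpl39 had 1291 to 4456 in MaSC, 2319 to 3236 in MYO and 1920 to 3159 in CFC. The restricted paralogs Rpl39l and Rpl3l were near the filter, with 164 to 996 and 145 to 1214 in MaSC, 40.2 to 1790 and 82.9 to 1021 in MYO, and 80.4 to 907 and 163 to 1845 in CFC, and no order of the populations could be read from them. Rps4x, an X-linked core gene, had 78034 to 88214 in MaSC, 66745 to 120862 in MYO and 97934 to 167304 in CFC, with MaSC below CFC in every pair of samples.

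Myoepithelial cells showed a smaller and less even difference from the colony forming fraction. The median log2 fold change, MYO minus CFC, was -0.35, against -0.02 over all genes, and 43 of the 48 members lay below 0. Only Rps28 and Rplp0 (4.17%) had all MYO samples below all CFC samples, against 6.96% of all genes, and only Rpl7l1 and Rps25 (4.17%) had all above, against 6.18%. No member was called (limma, Benjamini-Hochberg; smallest adjusted p = 0.356, for Rpl41 at -1.18 ± 0.46, which was -0.68 without CFC1 and -0.78 without MYO3), against 0.45% of all genes called lower and 0.90% called higher. At an unadjusted p under 0.05, 1 member was lower and 1 higher, a rule that took 3.53% and 3.93% of all genes.

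Further genes among the lowest in this comparison were Rps9 (-0.85 ± 0.42, adjusted p = 0.629) and Rpl11 (-0.65 ± 0.39, adjusted p = 0.768). Rps9 had signals of 7439, 14147 and 15943 in the MaSC samples, 12593, 19850 and 7039 in the MYO samples and 30790, 14735 and 23112 in the CFC samples, and the MYO2 sample was above CFC2. Without MYO3 the MYO minus CFC values were -0.47 for Rps9 and -0.22 for Rpl11. The median of the 48 genes rested on 1 sample: without MYO3 it was -0.08, and without CFC1 it was -0.23.

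Between the stem cell enriched and the myoepithelial fraction the members differed little. The median log2 fold change, MaSC minus MYO, was -0.17, against -0.01 over all genes, with 38 of 48 below 0. Within a population, the members' median per sample varied with an SD of 0.33. No member was called (limma, Benjamini-Hochberg; smallest adjusted p = 0.999), and 0.0% of all genes were called in either direction. At an unadjusted p under 0.05, 1 member was lower and 0 were higher, against 2.09% and 1.76% of all genes. No member had all MaSC samples above all MYO samples, against 4.07% of all genes. Rpl37 (2.08% of the members, against 4.22% of all genes) was the member with all MaSC samples below all MYO samples, at -1.66 ± 0.55, and it was -0.65 without MaSC1.

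The next lowest, MaSC minus MYO, were Rpl14 (-0.76 ± 0.71), Rpl37a (-0.52 ± 0.45), Rpl22 (-0.52 ± 0.38), Rps20 (-0.51 ± 0.41) and Rpl27 (-0.45 ± 0.36). Each of these moved with single samples. Without MYO1 they were -0.26 for Rpl14, -0.03 for Rpl37a, -0.27 for Rpl22, -0.29 for Rps20 and -0.28 for Rpl27. Without MYO3 they were -1.12 for Rpl37a, -0.83 for Rpl22, -0.87 for Rps20 and -0.69 for Rpl27, and Rpl14 was 0.03 without MaSC2 and -1.30 without MaSC3. Rpl22 was -0.34 without MaSC2. Rpl27 had signals of 11878, 13486 and 11581 in the MaSC samples, 21244, 18732 and 11964 in the MYO samples and 21820, 19503 and 16316 in the CFC samples, with MYO3 alone in the MaSC range. At the other end were Rpl3l (0.82 ± 0.86), Rpl12 (0.33 ± 0.70), Rps16 (0.18 ± 1.0), Rplp0 (0.16 ± 0.42), Rpl7l1 (0.13 ± 0.47) and Rps6 (0.09 ± 0.49), each within or near its error. Rps6, the S6 kinase substrate, had 1701 to 3385 in MaSC, 1186 to 2911 in MYO and 2078 to 4043 in CFC. Rps16 was read on chip B, with 122 to 2177 in MaSC, 95.9 to 4028 in MYO and 229 to 1183 in CFC. The median moved with single samples: it was -0.40 without MYO3, -0.10 without MYO1 and -0.05 without MYO2.

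Taken by RNA sample, most of the bright members moved together, and the dim ones did so less. Over the 47 genes on chip A, the median difference from each gene's mean over the 9 samples was -0.38, -0.20 and -0.22 log2 in MaSC1 to MaSC3, 0.29, 0.29 and -0.57 in MYO1 to MYO3 and 0.52, 0.03 and 0.41 in CFC1 to CFC3. The 3 MaSC samples were all below the 3 CFC samples, and the MYO samples did not stay together: MYO1 and MYO2 lay between CFC2 and CFC3, and MYO3 was the lowest of all. Of the 47 genes, 42, 36 and 36 were below their own mean in MaSC1 to MaSC3, 13, 9 and 43 in MYO1 to MYO3 and 6, 18 and 6 in CFC1 to CFC3. The representative probe sets held 3.65%, 3.85% and 3.79% of the summed signal of chip A in MaSC1 to MaSC3. Their share was 4.77%, 4.68% and 3.02% in MYO1 to MYO3 and 5.80%, 4.71% and 5.38% in CFC1 to CFC3, so MaSC lay below CFC and MYO3 below all. In such bulk RNA, fewer cells with high levels and less RNA per cell cannot be told apart.

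**Figure D3:**
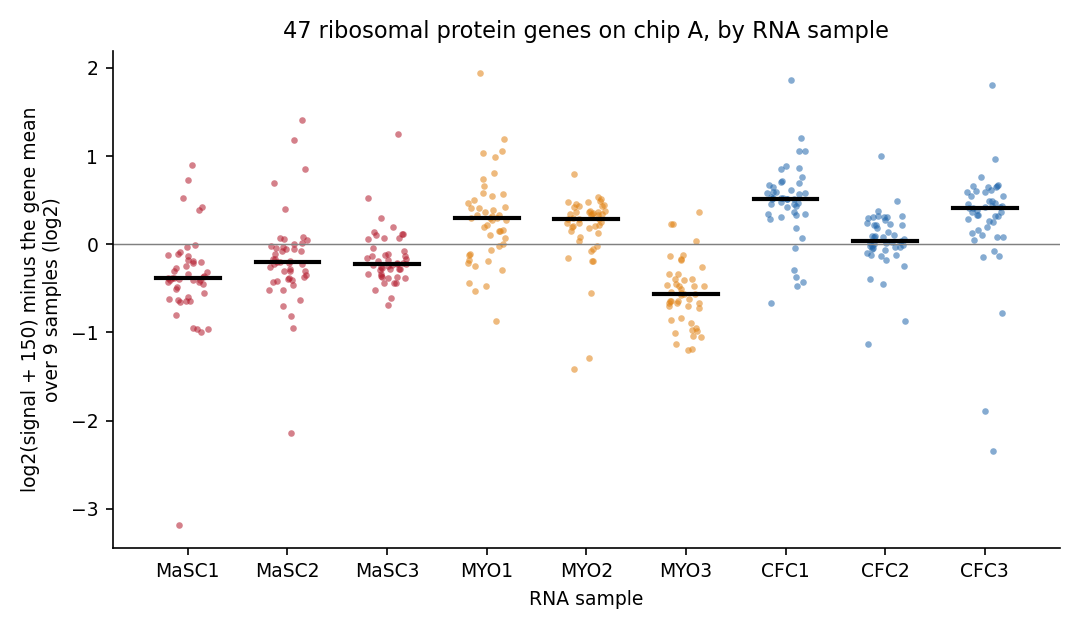
Each point is 1 of the 47 ribosomal protein genes on chip A in 1 RNA sample, as log2(signal + 150) minus the gene's mean over the 9 samples; the bar is the median. The medians of the MaSC samples (-0.38, -0.20 and -0.22) lie below those of the CFC samples (0.52, 0.03 and 0.41), and MYO3 (-0.57) lies apart from MYO1 and MYO2 (0.29 each).

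Large and small subunit genes gave nearly the same profile, with medians of -0.52 and -0.64 in MYO3 and 0.52 and 0.52 in CFC1. The gene whose profile over the 9 samples was most like the median of all other members was Rplp2 (Pearson r = 0.99), and Rps10 and Rpl11 (0.98 each) and Rps26 (0.97) were among the next. The median r was 0.86, and 28 of the 47 genes reached 0.8, all of them bright. The 13 dim genes of chip A had a median r of 0.24 and a maximum of 0.74. Rpl7l1 (-0.49), Rps25 (-0.36), Rps27 (-0.32), Rpl12 (-0.10) and Rpl39 (-0.07) were below 0. These r describe 9 samples that share arrays and scaling.

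The profile of the members was set beside that of other bright probe sets, which were not matched to the members in signal. The part of signal level in the profile was not tested. For 658 other chip A probe sets with a mean signal of at least 10000, the medians were -0.53, 0.08 and 0.18 in MaSC1 to MaSC3, 0.05, 0.29 and -0.11 in MYO1 to MYO3 and 0.36, 0.00 and -0.10 in CFC1 to CFC3. MaSC1 and CFC1 stood out in both, while MaSC2, MaSC3, MYO3 and CFC3 differed. The 98 tested chip A probe sets that name a ribosomal protein gene among several gave the members' profile again, with -0.40, -0.28 and -0.24 in MaSC1 to MaSC3, 0.26, 0.31 and -0.56 in MYO1 to MYO3 and 0.53, 0.11 and 0.31 in CFC1 to CFC3.

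Probe sets of 1 gene did not always move together. Of 17 genes with at least 3 tested probe sets, 8 held a pair with opposite signs and over 0.5 log2 apart in MaSC minus CFC. The widest were Rps9 (-0.87 and 1.82), Rps20 (-1.16 and 1.45), Rps24 (-1.09 and 1.52), Rps10 (-0.82 and 1.73), Rpl41 (-1.39 and 1.01) and Rpl37a (-1.01 and 0.43). In each of the 6 the highest value came from a dim probe set. The mean signal of that probe set was 432 for Rps9, 695 for Rps20, 758 for Rps24, 825 for Rps10, 2074 for Rpl41 and 2290 for Rpl37a.

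The bright probe sets of these genes pointed one way. The 3 of Rps10 with a mean signal of at least 10000 gave -0.75, -0.82 and -0.60, and the 2 bright ones of Rps20 gave -0.83 and -1.16. For Rpl35, whose 6 probe sets ranged over -1.13 to 0.06, the single value above 0 came from a probe set with a mean signal of 868. Of the 105 members, 43 carry a name ending in _x_at or _s_at, which marks probes that can also bind other transcripts, and ribosomal protein genes have many processed pseudogenes. Without these probe sets the median, MaSC minus CFC, was -0.50.

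**Figure D4:**
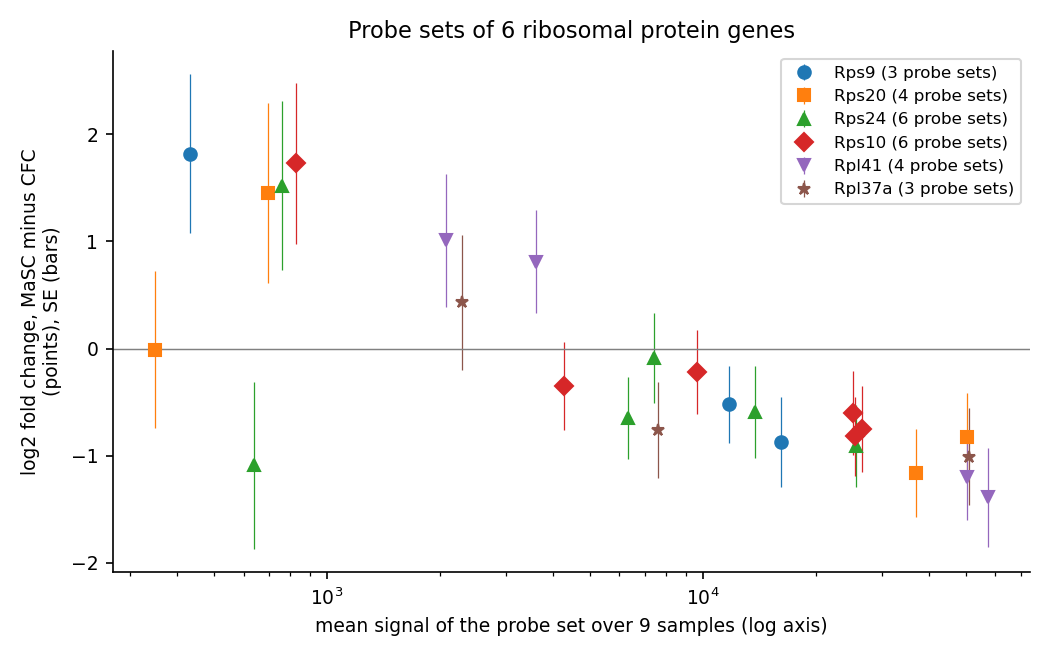
Log2 fold change, MaSC minus CFC (points, with the standard error as bars), of every tested probe set of Rps9, Rps20, Rps24, Rps10, Rpl41 and Rpl37a against its mean signal over the 9 samples on a log axis. Probe sets with a mean signal of at least 10000 all lie below 0, and the values above 0 come from probe sets with a mean signal of 3597 or less.

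The array handling moved with part of this pattern. Per the deposited handling records, the chip A arrays of MaSC1, MaSC2 and MYO3 were washed at fluidics station 1 and the other 6, MaSC3 and all CFC among them, at station 2. The station 1 samples had member medians of -0.38, -0.20 and -0.57 log2, and MaSC3 at station 2 had -0.22. With the station as a block the median fold change of the members, MaSC minus CFC, was -0.28, and with station 2 arrays alone it was -0.49 (1 MaSC sample). With station 2 alone 34 of the 48 genes had MaSC3 below all CFC samples (70.8%, against 27.5% of all genes). Quantile normalisation, which forces the arrays to 1 distribution of values, gave -0.29, and then 18 genes (37.5%, against 7.01% of all genes) had all MaSC samples below all CFC samples.

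Scan day, with the chip A arrays of MYO2 and MaSC3 on the second day, moved the median less (-0.65 as a block within each chip). The ratio of the 3′ to the 5′ probe set of Actb, a sign of RNA integrity and of labelling, was 10.6 to 13.5 in MaSC. It was 12.2 to 30 in MYO, with MYO1 the highest, and 10.7 to 15 in CFC. For Gapdh the ratio was 8.53 to 14.2 in MaSC, 11.5 to 16.7 in MYO and 8.27 to 13.0 in CFC. The populations overlapped, but in every sample the 3′ signal was many times the 5′ signal. Summed leukocyte markers overlapped too, at 4994 to 13854 in MaSC, 6797 to 11325 in MYO and 5829 to 9903 in CFC, with 0 of 9 called (limma), and Ptprc, the common leukocyte antigen, at 43.9 to 643 in MaSC, 236 to 743 in MYO and 87.7 to 607 in CFC. Singly, 2 of the 9, Lyz2 and Tyrobp, had every MYO sample above every CFC sample, against 6.18% of all genes. Cd3e had every MaSC sample above every MYO sample. No leukocyte marker separated MaSC from CFC. Summed fibroblast markers were 10700 to 17249 in MaSC, 9643 to 37981 in MYO and 11026 to 17785 in CFC (0 of 5 called). Among them Col1a2, a collagen chain, was above every CFC sample in every MaSC and every MYO sample (0.96 ± 0.54 for MaSC, adjusted p = 0.684, and 2.0 ± 0.54 for MYO, adjusted p = 0.0531, both minus CFC). Those of endothelium were 5385 to 7531 in MaSC, 3212 to 9831 in MYO and 5771 to 7843 in CFC (0 of 5 called), and Hba-a1, the only erythroid marker tested, was not called, with 705 to 1296 in MaSC, 662 to 1201 in MYO and 585 to 691 in CFC, so that MaSC lay above CFC. The part of these in the result was not tested.

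Other genes of translation were read beside the members. Of 20 listed translation factors and related genes with oligopyrimidine tracts, 19 were tested. None was called (limma), 14 lay below 0 in MaSC minus CFC, and their median was -0.46. In 5 of the 19 all MaSC samples were below all CFC samples, against 6.94% of all genes and 15.6% of the other bright genes: the nascent chain factor Btf3, the elongation factors Eef1a1 and Eef1b2, and the initiation factor 3 subunits Eif3f and Eif3h. Eef1b2, the exchange factor of elongation factor 1, had signals of 22981, 24990 and 26674 in the MaSC samples, 39786, 41767 and 20469 in the MYO samples and 51858, 33962 and 48856 in the CFC samples, with a fold change of -0.83 ± 0.39 (adjusted p = 0.561). Its samples were ordered much as those of the bright members, with MYO3 the lowest. Tpt1 (0.11) and Npm1 (0.17) did not share the direction. Fau, which encodes a ubiquitin-like protein fused to the small subunit protein S30 and lies outside the symbol rule, had -0.48 ± 0.38 (adjusted p = 0.821).

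Genes of the machinery that makes ribosomes were mostly dim, and the 14 dim members had a median of -0.04. The median, MaSC minus CFC, was -0.14 for 11 genes of RNA polymerase I and its factors (8 below 0), 0.07 for 42 genes of ribosomal RNA processing and assembly, and 0.03 for 15 mTOR and Myc pathway genes. For 75 mitochondrial ribosomal protein genes, which serve the ribosomes of mitochondria, it was -0.19. No gene of these 4 lists was called in any comparison (limma). Their bright genes numbered 0 of 11, 2 of 42, 2 of 15 and 0 of 75 in that order, so they could not be compared with the bright members at like signal, and their difference from the members was not tested. Within the members, the 15 genes with an oligopyrimidine start in the annotated window had a median of -0.64 and the 28 without such a match -0.55, MaSC minus CFC. The split rests on the annotated start, so it may not separate messengers with the motif from those without it. The windows of Rpl4 and Rps25, both counted without a match, hold a pyrimidine run farther from that start.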

How the data were processed

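RNA of 9 samples was read on 2 Affymetrix chips each. The deposited values are intensities, 1 signal per probe set and array on a linear scale, made by the authors with MAS5, per the submitters' processing notes; its version is not given in the sources used here. After trimming 2% at each end, all arrays had a mean signal of 1500, and this scaling was kept. The deposited handling records of all 18 arrays named the sample and chip of the label. Gene names come from the platform annotation, updated by Entrez identifier.

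Tests used limma 3.58.1 in R 4.3.3 (lmFit, and eBayes with a trend) on log2(signal + 150), with 1 fit per chip over 9 arrays and all tested probe sets (20160 on chip A, 21394 on chip B). Adjustment was by Benjamini-Hochberg within a chip, with calls at an adjusted p under 0.05. A gene was represented by its chip A probe set of highest mean log2 signal, or by one of chip B where chip A had none. The fit was tested on simulated data. The members and lists were chosen with earlier results of these data known. Genes named are the 6 lowest and highest by fold change in each comparison, the 5 with the highest and lowest mean signal, paralogs, genes whose probe sets disagree, and genes close to the members' common profile. The last group, Rpl35 and the genes named outside the members were chosen after their values were seen. Alternatives covered pseudocount, filter, normalisation, variance model, weights, blocks and samples left out. The number of arrays limits the precision. Detection calls were not used here.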

Additional observations from a re-analysis of the deposited data

How the results depend on the processing

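Over 29 other settings, of which 9 left out 1 RNA sample, the median log2 fold change of the ribosomal protein genes stayed below 0 in all 3 comparisons. With 1 sample left out it was -0.69 to -0.46 for MaSC minus CFC, -0.49 to -0.08 for MYO minus CFC and -0.40 to -0.05 for MaSC minus MYO. Over the 20 others it was -0.65 to -0.28, -0.50 to -0.08 and -0.40 to -0.01. The lowest sizes came from quantile normalisation and the fluidics station block (chosen after seeing the data), and for MYO minus CFC from leaving out MYO3.

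The number of member probe sets called was 0 except in 4 cases. With 1 sample left out, it was 0 to 1 for MaSC minus CFC and 0 to 1 for the F test over the 3 populations; the 1 was Rpl37 without MaSC2 in both. For MYO minus CFC it was 1 with scan day as a block and 1 in a fit of only the 2 groups compared. That was a dim probe set of Rpl37a, at 2.46 (adjusted p = 0.0256) and 1.88 (adjusted p = 0.0422), opposite in sign to the gene's bright probe set. The count of genes with all MaSC below all CFC samples was 29, with 18 under quantile normalisation, and 29 to 37 with 1 sample left out (11.1% to 13.5% of all genes). Leaving out samples can only keep or raise this count for the same genes, so the lower end of that range was fixed in advance. Rpl14 changed sign: at station 2 alone MaSC minus CFC was 0.14 and MaSC minus MYO was 0.0. Leaving out MaSC1, MaSC2 and MYO3 is the same fit on chip A. With 1 sample left out, Rpl14 ranged over -1.3 to 0.03 for MaSC minus MYO, with 0.03 without MaSC2. With the replicate number as a block the medians were -0.60, -0.35 and -0.17 with 0 calls. Same-numbered samples of different populations correlated at -0.113 to 0.118 on chip A, and differently numbered ones at -0.111 to 0.141. No pairing by number was visible, but these values cannot exclude one.

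Dim probe sets limit the reading of Rpl12, Rpl14, Rpl3l, Rpl39l and Rps16, whose standard errors were 0.70 or more.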
